A study of Mus musculus with 12 samples.

Results

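Chrna9, Chrna10 and Lypd1 were followed through ribosome-bound RNA of the newborn mouse inner ear, with and without the transcription factor GFI1. Chrna9 and Chrna10 encode the 2 subunits of the acetylcholine receptor through which efferent fibres act on hair cells, and Lypd1 encodes a membrane-anchored protein of the Ly6 family that can bind nicotinic receptors. They were named by symbol and are 3 of the 29641 genes listed in either organ. The choice used the measured difference between mutants and heterozygotes in the cochlea and in the vestibule. Their own differences in these contrasts, and between them, are therefore descriptions, and no test of them is given.

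The 12 libraries came from mice of postnatal day 0 to 1, with 3 libraries in each of 4 groups. Cochlear and vestibular heterozygotes were Gfi1Cre/+;RiboTagHA/HA, and cochlear and vestibular mutants were Gfi1Cre/Cre;RiboTagHA/HA. All groups thus carried Cre at the Gfi1 locus and the RiboTag allele, in which Cre switches on an HA-tagged ribosomal protein, and RNA was pulled down with an antibody to HA. Heterozygotes had 1 allele with Cre and mutants 2, so that Cre dose and loss of unmodified Gfi1 cannot be told apart. Tagged ribosomes are made wherever the Gfi1 locus is, or has been, active. In the ear that is mainly in hair cells, but some blood cells also use the gene. What share of the RNA came from hair cells or from other cells was not tested. Cochlear libraries were made with the NuGEN Ovation Ultralow kit and vestibular libraries with the NEBNext Ultra Directional kit, so that organ and kit cannot be told apart and levels are not compared between organs. The series names its triplicates independent and biological.

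Medial olivocochlear and vestibular efferent neurons release acetylcholine onto hair cells or the nerve endings beneath them. The receptor formed by the Chrna9 and Chrna10 products is an ion channel that lets calcium in, and in hair cells this calcium opens small-conductance potassium channels, encoded by Kcnn2, which hyperpolarise the cell. Around birth, efferent fibres contact inner hair cells transiently, before most of them settle on outer hair cells. Proteins of the Ly6 family related to snake toxins can alter the assembly or the ligand response of nicotinic receptors. GFI1 is a zinc finger repressor that hair cells need to mature and survive.

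Chrna9 (ENSMUSG00000029205) lies on chromosome 5 at 65934921 to 65977326, plus strand, on GRCm38 in GENCODE M21, with 3026 exon bases of which none are shared with another gene. Chrna10 (ENSMUSG00000066279) lies on chromosome 7 at 102111266 to 102116828, minus strand, with 2628 exon bases. Lypd1 (ENSMUSG00000026344) lies on chromosome 1 at 125867622 to 125913101, minus strand, with 7038 exon bases. GFI1 recognises DNA through the core AATC, so the bases before the start sites are shown here with each AATC, read on either strand, in capitals (AATC or GATT). All 3 genes were found in the RefSeq promoter table for GRCm38.p6, Lypd1 with 3 start sites. Sequences are 5′ to 3′ on the strand of the gene and stop at the first base inside an annotated exon. For the outermost Lypd1 start 77 of the 250 bases are thus shown, and those left out include bases outside exons.
Chrna9, chr5:65966874-65967123: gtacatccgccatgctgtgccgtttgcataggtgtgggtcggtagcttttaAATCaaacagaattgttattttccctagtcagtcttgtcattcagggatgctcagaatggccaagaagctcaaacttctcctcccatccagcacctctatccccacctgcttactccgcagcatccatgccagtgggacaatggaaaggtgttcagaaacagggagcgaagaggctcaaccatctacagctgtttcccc
Chrna10, chr7:102116829-102116963: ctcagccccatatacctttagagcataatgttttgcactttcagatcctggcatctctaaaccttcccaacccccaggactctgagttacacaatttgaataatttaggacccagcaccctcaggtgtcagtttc
Lypd1, outermost start, chr1:125913102-125913178: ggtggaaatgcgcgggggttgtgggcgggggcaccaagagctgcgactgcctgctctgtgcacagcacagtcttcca
Lypd1, innermost start, chr1:125911388-125911637: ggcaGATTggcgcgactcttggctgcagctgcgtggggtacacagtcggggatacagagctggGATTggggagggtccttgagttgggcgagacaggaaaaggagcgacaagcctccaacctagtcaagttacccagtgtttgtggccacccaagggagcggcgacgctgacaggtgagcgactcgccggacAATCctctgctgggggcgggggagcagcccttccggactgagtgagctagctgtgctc

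The Chrna9 window held 1 AATC core, inside the longer form AAATCA, and its RefSeq start lay 32203 bases inside the span that GENCODE gives the gene. No AATC was found in the 250 bases before the Chrna10 start, nor before the outer and the middle start of Lypd1. The innermost Lypd1 start had 3 cores. Over all 32851 promoters of the table, 69.0% held AATC and 12.4% held AAATCA in the 250 bases before the start, counted on both strands, so these counts describe the windows and say nothing about binding. AAATCA contains AATC, and the matches to each overlap.

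Sequencing depth differed between organs. Cochlear libraries held 7531518 to 9363796 reads, and a single read stood for 0.107 to 0.133 CPM (reads scaled to the library total). Vestibular libraries held 18951026 to 29370267 reads, where a read stood for 0.0340 to 0.0528 CPM. In the cochlea, the first principal component separated the genotypes (40.6% of variance), and the next (24.0%) set both replicate 3 libraries apart. In those libraries mitochondrial transcripts summed to 33207 CPM in the heterozygote and 27152 CPM in the mutant, against 58562 to 78544 CPM in the other 4. In the vestibule, the first component (45.5%) set both replicate 1 libraries apart and the next (34.9%) separated the genotypes. Results on the other genes were also computed without these pairs.

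In the cochlea, Chrna9 stood lower in mutants. Heterozygotes had 33.8, 28.5 and 33.6 CPM (32.0 ± 2.98, SD, n = 3) and mutants 6.37, 7.74 and 7.18 CPM (7.10 ± 0.688, n = 3). The mutant mean was 22.2% of the heterozygote mean, and the highest mutant library lay far under the lowest heterozygote. The log2 difference of CPM + 1, mutant minus heterozygote, was -2.03 (SE 0.18). In bulk libraries such as these, fewer cells of a type and less RNA per cell cannot be told apart.

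Chrna10 followed the same direction in the cochlea, from a higher level. Heterozygotes had 89.9, 66.4 and 61.8 CPM (72.7 ± 15.1, n = 3), with replicate 1 the highest, and mutants 19.4, 26.3 and 22.1 CPM (22.6 ± 3.50, n = 3). The mutant mean was 31.1% of the heterozygote mean and the groups did not overlap. The log2 difference was -1.63 (SE 0.17).

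Lypd1 went the other way in the cochlea. Heterozygotes had 18.9, 16.6 and 22.4 CPM (19.3 ± 2.93, n = 3) and mutants 40.7, 59.7 and 42.9 CPM (47.8 ± 10.4, n = 3). Each mutant library exceeded each heterozygote, and the ratio of the means was 2.47. The log2 difference was 1.25 (SE 0.18).

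Among the 17985 genes tested in the cochlea, 2.52% were called lower and 1.90% higher at a Benjamini-Hochberg adjusted p under 0.05 with limma. No call is read for the 3 chosen genes. Groups that did not overlap were found for 7.77% of genes with mutants lower and for 9.74% with mutants higher.

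**Figure D1:**
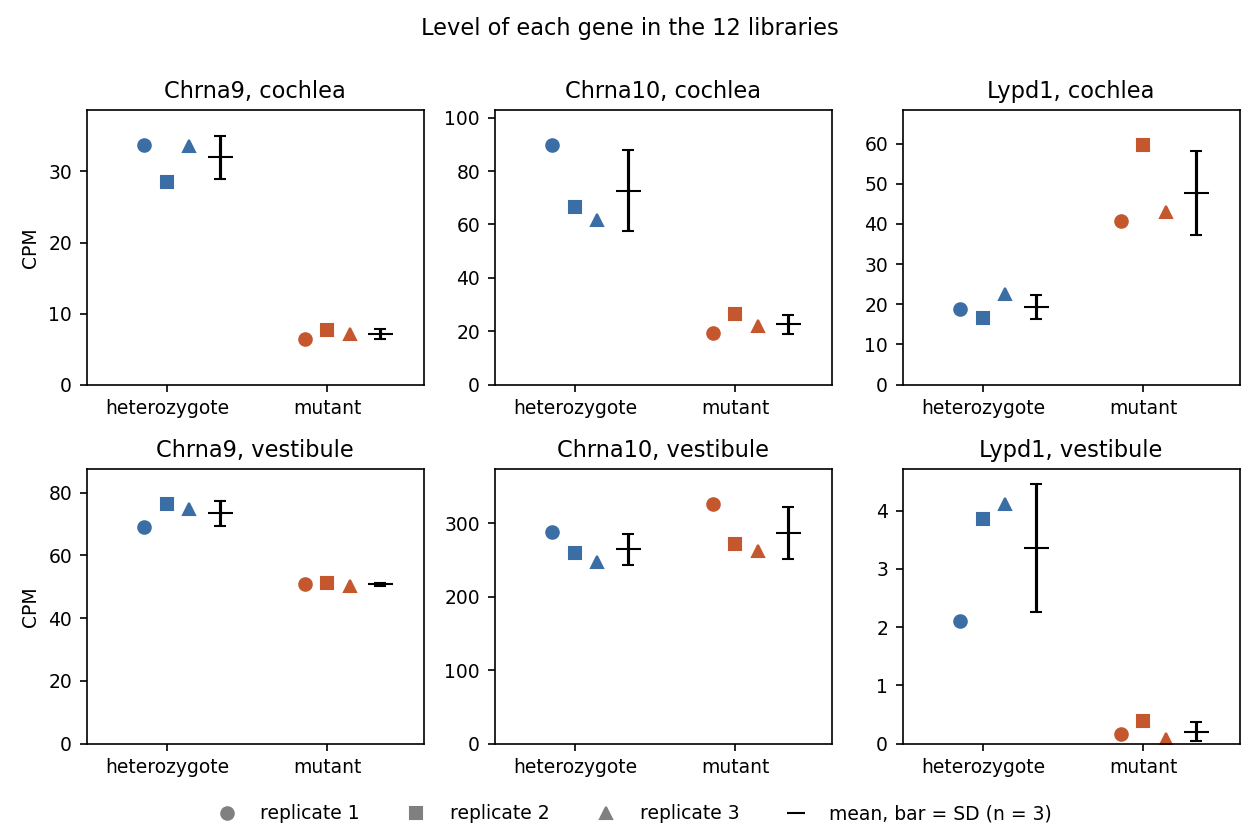
Level in CPM (vertical axes, from 0, each with its own range) of Chrna9, Chrna10 and Lypd1 in the 3 heterozygote and 3 mutant libraries of each organ, with mean and SD as black bars. Chrna9 and Chrna10 were lower in each cochlear mutant library, Chrna10 overlapped between the vestibular genotypes, and Lypd1 was higher in cochlear but lower in vestibular mutants.

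In the vestibule the same subunit genes parted. Chrna9 stood at 69.0, 76.5 and 74.7 CPM in heterozygotes (73.4 ± 3.90, n = 3) and at 50.8, 51.1 and 50.4 CPM in mutants (50.8 ± 0.381, n = 3). Mutant libraries lay below every heterozygote, at 69.2% of the mean, and spread by less than 1 CPM. The log2 difference was -0.52 (SE 0.12).

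Chrna10, by contrast, stood at 288, 260 and 247 CPM in vestibular heterozygotes (265 ± 21.0, n = 3) and at 327, 271 and 262 CPM in mutants (286 ± 35.0, n = 3). The ranges overlapped, with replicate 1 the highest in either genotype. The log2 difference was 0.11 (SE 0.13), smaller than its error.

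Lypd1 was scarce in the vestibule. Heterozygotes had 2.10, 3.86 and 4.12 CPM (3.36 ± 1.10, n = 3) and mutants 0.158, 0.382 and 0.0819 CPM (0.207 ± 0.156, n = 3). In reads these were 260 over the 3 heterozygotes and 14 over the 3 mutants. The log2 difference of CPM + 1 was -1.83 (SE 0.29), and at levels this low the added 1 shrinks it. The gene passed the filter (1 CPM or more in 3 or more libraries) through the heterozygotes alone, so the groups had to differ.

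Of the 15595 genes tested in the vestibule, 1.09% were called lower and 2.41% higher. With the replicate number fitted as a block these shares were 12.8% and 10.5%. No call is read for the chosen genes here either. Groups did not overlap for 11.6% of vestibular genes with mutants lower and for 10.7% with mutants higher.

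Set side by side, the cochlear minus the vestibular log2 difference was -1.50 (SE 0.19) for Chrna9, -1.74 (SE 0.23) for Chrna10 and 3.08 (SE 0.34) for Lypd1. Lypd1 thus had opposite signs in the organs, the vestibular sign being fixed by the filter. In the fit of all 12 libraries, 3.14% of the 14674 genes tested in both organs were called for such a difference, and no p is given for the 3 chosen genes.

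The counting tool and its strand setting are not given in the sources used here, so exon bases shared with a gene on the other strand could have been counted for either. Chrna10 shares 1025 exon bases, 39.0% of its own, with Art1, which encodes an ADP-ribosyltransferase and lies on the opposite strand. Art1 was at 0.695 to 1.28 CPM in the 6 cochlear libraries, where Chrna10 was at 19.4 CPM or more. In the vestibule Art1 was read at 26.9, 18.6 and 15.8 CPM in heterozygotes and 30.1, 15.6 and 20.6 CPM in mutants, with a log2 difference of 0.09 (adjusted p = 0.927). Lypd1 shares 1202 exon bases, 17.1% of its own, with Gpr39 on the opposite strand, a gene for a zinc-sensing receptor. Gpr39 was at 0 to 0.531 CPM in the cochlea, at 0.102 to 0.357 CPM in vestibular heterozygotes and at 0 in the 3 vestibular mutants. Both neighbours were thus far below the genes they overlap in the cochlea. What part of the reads of Chrna10 or Lypd1 came from the shared bases was not tested.

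Within each library, the level of Chrna10 per exon base was set against that of Chrna9, which cancels library size. In the cochlea this ratio was 2.62 ± 0.48 in heterozygotes (2.12 to 3.06, n = 3) and 3.65 ± 0.23 in mutants (3.50 to 3.91, n = 3). In the vestibule it was 4.17 ± 0.55 in heterozygotes (3.81 to 4.80, n = 3) and 6.50 ± 0.79 in mutants (5.98 to 7.41, n = 3). Chrna10 exceeded Chrna9 per base in all 12 libraries, and the ratio was higher in mutants than in heterozygotes in either organ without overlap. The ratio uses the values by which the genes were chosen and is not tested. Lengths are the union of annotated exons, which may differ from the transcripts made. Of the Chrna10 exon bases 39.0% are shared with Art1.

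**Figure D2:**
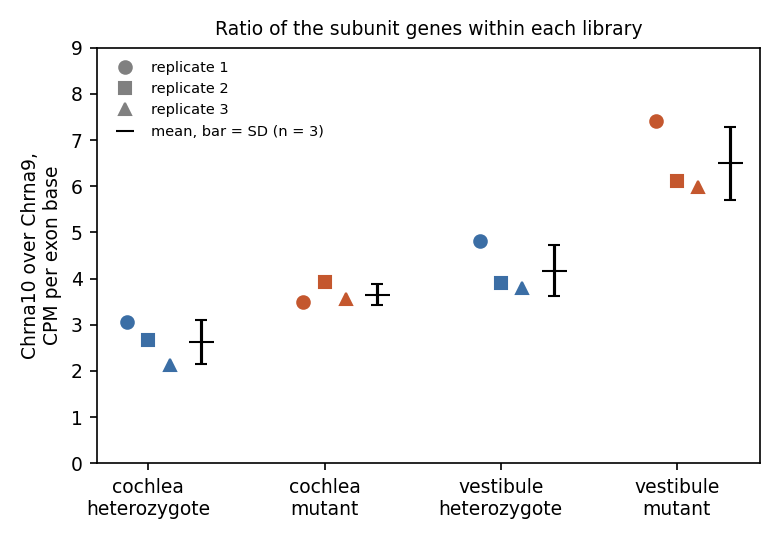
Chrna10 over Chrna9, each in CPM per exon base, in each of the 12 libraries (points, shape by replicate) with the mean and SD of each group. Mutants lay above heterozygotes in both organs, from 3.50 to 3.91 against 2.12 to 3.06 in the cochlea and from 5.98 to 7.41 against 3.81 to 4.80 in the vestibule.

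The 9 hair cell markers were all present in both organs. In the cochlea 7 of the 9 fell in mutants (8 with the replicate block) and none rose, with a median log2 difference of -0.72 beside 0.05 over all tested genes. Their sum lay between 5722 and 6711 CPM in heterozygotes and between 3640 and 4344 CPM in mutants. Cdh23 and Pcdh15, which form the tip links of the hair bundle, fell by 1.77 and 0.72 on the log2 scale (adjusted p = 8.56e-05 and 0.00558). Otof, needed for release at hair cell synapses, fell by 0.89 (adjusted p = 0.00349).

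Per 1000 CPM of these markers, Chrna9 stood at 5.02 ± 0.034 CPM in cochlear heterozygotes and 1.74 ± 0.086 CPM in mutants (n = 3 each). Chrna10 stood at 11.4 ± 2.13 CPM and 5.54 ± 0.587 CPM on the same scale. On this scale the libraries ranged, mutants against heterozygotes, from 1.65 to 1.82 against 4.99 to 5.06 for Chrna9 and from 5.09 to 6.20 against 9.21 to 13.5 for Chrna10. In the vestibule none of the 9 markers was called, the median was 0.22 beside -0.06 over all genes, and the sums lay between 9263 and 10489 CPM in heterozygotes and between 10533 and 11205 CPM in mutants. With the replicate block 4 of them rose and none fell, and 2 rose when both replicate 1 libraries were left out. Per 1000 marker CPM, vestibular Chrna9 was 7.48 ± 0.379 in heterozygotes and 4.70 ± 0.184 in mutants, and Chrna10 was 27.1 ± 3.79 and 26.5 ± 3.64. The part of hair cell number in these differences was not tested.

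Markers of ganglion neurons were set beside Lypd1, and which cells in these libraries carried them was not tested. Of the 11 ganglion neuron markers, 4 rose in the cochlear mutants (6 with the replicate block) and none fell, and their sum lay between 1062 and 1159 CPM in heterozygotes and between 1673 and 1758 CPM in mutants. Tubb3, a neuronal tubulin, was higher by 3.03 (SE 0.36, adjusted p = 0.000168) and Nefm, a neurofilament subunit, by 0.81 (SE 0.13, adjusted p = 0.00228). In the vestibule 3 of 10 tested markers rose and 1 fell, and the sum lay between 1412 and 1586 CPM in heterozygotes and between 2296 and 2388 CPM in mutants, while Lypd1 was lower there. With the block 5 rose and 1 fell, and without both replicate 1 libraries 3 rose and none fell. Each of the 4 vestibular calls without the block was lost when any of several single libraries was left out. The part of neurons in the Lypd1 values was not tested.

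Markers of cells that could sit beside hair cells or carry Cre were also read. None of the 9 supporting cell markers was called in either organ, and with the block 2 rose and 2 fell in the vestibule. Schwann cell markers gave no call in the cochlea and 1 of 6 lower in the vestibule, where heterozygotes had sums of 318 to 346 CPM and mutants of 181 to 215 CPM. Mesenchyme markers gave none in the cochlea and 1 of 5 lower in the vestibule, with sums of 1359 to 1868 CPM and 729 to 1096 CPM. With the replicate block these vestibular counts became 5 of 6 and 5 of 5, and 3 of the 5 mesenchyme markers were lower without both replicate 1 libraries. Vestibular Lypd1 was lower in the same libraries, and the part of these cells in it was not tested. Granulocyte markers fell in 3 of 4 tested genes in the cochlea (heterozygote sums of 28.6 to 52.8 CPM, mutant sums of 3.74 to 8.75 CPM) and in 5 of 5 in the vestibule (75.3 to 95.0 CPM and 8.15 to 10.9 CPM). Ngp and Ltf in both organs, and Camp in the vestibule, passed the filter through the heterozygotes alone and so had to differ. The genes tested without that condition were S100a8 and S100a9, of which S100a9 fell in the cochlea (both with the block) and both in the vestibule. No macrophage or lymphocyte marker was called in either organ. With the block 3 macrophage markers and 1 lymphocyte marker were lower in the vestibule, as was 1 lymphocyte marker without both replicate 1 libraries. Macrophage sums of heterozygotes ran from 995 to 1295 CPM in the cochlea and from 3986 to 5889 CPM in the vestibule. Those of mutants ran from 1248 to 1327 CPM and from 3773 to 4679 CPM. Which cells the macrophage marker transcripts came from was not tested.

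Of 5 genes that mark efferent terminals, Chat and Slc18a3 were not analysed here. In the cochlea 1 of the 3 tested rose, and in the vestibule 1 of 2. Slc5a7, the choline transporter, ranged from 38.1 to 48.0 CPM in cochlear heterozygotes and from 32.7 to 46.5 CPM in mutants, with a log2 difference of -0.04 (SE 0.17, adjusted p = 0.984). Slc10a4, a transporter-like protein of cholinergic vesicles, rose in the cochlea, from at most 1.86 CPM in heterozygotes to at least 13.9 CPM in mutants (log2 difference 3.25, adjusted p = 1.98e-05). Calca, which encodes CGRP, rose in the vestibule by 0.97 (adjusted p = 0.0251), a call lost when any of 5 single libraries was left out. Whether the transcripts of these genes came from efferent terminals or from other cells was not tested.

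The other 14 nicotinic receptor subunit genes did not move as a block. In the cochlea 10 of them were tested, and 2 rose, 3 fell and 5 were not called, with a median log2 difference of 0.31 beside 0.05 over all genes. Chrna2, 1 of the 10, passed the filter through the mutants alone and so had to be higher. The median was -0.098 to -0.021 without 1 of the mutant libraries, where 9 genes were tested. It was -0.006 to 0.44 without 1 of the heterozygote libraries. Chrna1 and Chrng encode subunits of the embryonic muscle receptor, and Chrna3 and Chrnb4 those of autonomic ganglia.

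Chrng fell in the cochlea, from 18.9, 33.1 and 26.6 CPM in heterozygotes to 10.0, 9.16 and 6.60 CPM in mutants (log2 difference -1.49, SE 0.23, adjusted p = 0.00158). Chrna1 fell from 57.7, 32.4 and 37.1 CPM to 19.4, 5.29 and 18.8 CPM (-1.63, SE 0.37, adjusted p = 0.0216), but the adjusted p was 0.143 without heterozygote replicate 1. Neither gene overlapped between the genotypes. The 7 skeletal muscle markers listed were each under 1 CPM in all cochlear heterozygotes with sums of 1.28 to 2.39 CPM, and their sums in mutants were 1.37 to 4.52 CPM, below Chrna1 in each library.

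Chrnb4 fell from 20.6, 16.2 and 17.8 CPM to 6.37, 8.52 and 6.37 CPM (-1.25, SE 0.21, adjusted p = 0.00244). Chrna3 rose from 0.508, 1.46 and 0.748 CPM to 7.37, 8.90 and 10.2 CPM (2.39, SE 0.27, adjusted p = 0.00012). The pair lies side by side on chromosome 9, Chrna3 ending at 55026562 and Chrnb4 starting at 55028154, yet they went opposite ways. Chrnb3, an accessory subunit, went from 11.2, 8.50 and 7.48 CPM to 19.4, 22.2 and 13.6 CPM (0.94, SE 0.23, adjusted p = 0.0338). That call was lost with edgeR (adjusted p = 0.0641), with either other scaling, without the filter, and without each of 4 single libraries, where it reached 0.182.

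In the vestibule 8 of the 14 were tested, 1 fell, none rose, and the median was -0.22 beside -0.06. With the replicate block 3 rose and 1 fell, and with quantile normalization 1 rose and 1 fell. Chrnd, 1 of the 3 that rose with the block, passed the filter through the mutants alone and so had to be higher. Chrnb3 passed it through the heterozygotes alone and so had to be lower. Chrna1 fell from 126, 113 and 108 CPM to 58.8, 62.7 and 43.7 CPM (-1.07, SE 0.16, adjusted p = 0.0103, or 0.0571 without heterozygote replicate 2). Of the muscle markers 1 was tested there and not called, and they summed to between 5.72 and 8.70 CPM in heterozygotes and between 3.69 and 6.23 CPM in mutants. Chrng stood at 137, 115 and 100.4 CPM in heterozygotes and 220, 165 and 132 CPM in mutants (0.53, adjusted p = 0.242, and 0.000341 with the block). Its difference between organs, cochlear minus vestibular, was -2.02 (SE 0.32, adjusted p = 0.00191). Like Chrna10, Chrng thus had a lower mean in cochlear mutants and a higher mean in vestibular mutants.

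**Figure D3:**
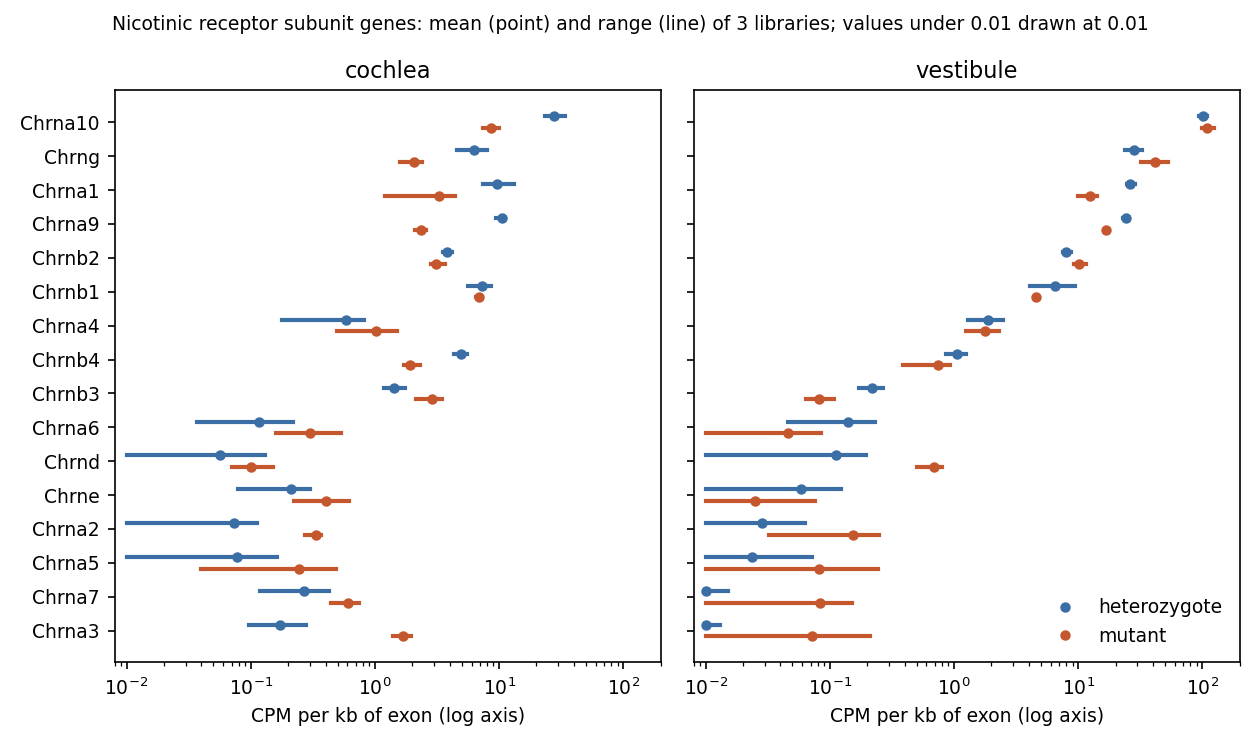
Mean level (points) and range over 3 libraries (lines) of the 16 nicotinic receptor subunit genes in CPM per kb of exon, on a log axis, by organ and genotype; values under 0.01 are drawn at 0.01. Chrna10 was the highest in each of the 4 groups, and Chrna9 was second in cochlear heterozygotes and sixth in cochlear mutants.

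Per kb of exon, Chrna10 stood highest of the 16 subunit genes in each group, with the limits of length and shared bases given for the ratio. In cochlear heterozygotes it stood at 27.7 CPM per kb, 37.8% of the sum over the subunit genes, above Chrna9 at 10.6 CPM per kb. Chrna9 overlapped the next gene, Chrna1, at 9.66 CPM per kb. In cochlear mutants Chrna10 was at 8.60 and Chrnb1, a muscle receptor subunit gene, at 6.88 CPM per kb, without overlap. Chrna9 was sixth there at 2.35 CPM per kb, within the range of its neighbours Chrnb3 at 2.88 and Chrng at 2.06 CPM per kb.

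In vestibular heterozygotes Chrna10 made up 51.0% of the subunit sum, at 100.7 CPM per kb. Chrng (28.2), Chrna1 (26.4) and Chrna9 (24.3 CPM per kb) followed. Chrng overlapped Chrna1 and Chrna1 overlapped Chrna9. In vestibular mutants the order was Chrna10 (109.0), Chrng (41.4), Chrna9 (16.8) and Chrna1 (12.6 CPM per kb), with no overlap between these neighbours. Chrna7, the main neuronal subunit that forms receptors on its own, was at 0.27 CPM per kb in cochlear heterozygotes and at 0.01 in vestibular ones.

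Of the remaining Ly6 family genes, none of the 5 tested was called in either organ, with medians of -0.02 in the cochlea and -0.58 in the vestibule. In the cochlea the smallest p belonged to Lynx1, a brain modulator of nicotinic receptors, at 1.78, 2.12 and 3.74 CPM in heterozygotes and 1.25, 1.55 and 2.43 CPM in mutants (-0.35, SE 0.29, adjusted p = 0.773). Ly6e followed with 0.21 (SE 0.19, adjusted p = 0.808). In the vestibule Lypd6b was at 2.01, 2.81 and 2.25 CPM against 1.42, 0.892 and 1.19 CPM (-0.63, SE 0.24, adjusted p = 0.251). Lypd6, at 15.9, 22.1 and 18.4 CPM against 8.07, 16.9 and 11.0 CPM (-0.65, adjusted p = 0.282), passed with the replicate block (adjusted p = 0.00829).

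Genes for receptor assembly and clustering gave no call among the 9 cochlear and the 7 vestibular ones tested, with medians of -0.05 and -0.16. Tmie, a hair cell protein that also aids assembly of this receptor, was at 51.6, 38.5 and 47.2 CPM in cochlear heterozygotes and 43.0, 30.8 and 37.6 CPM in mutants (-0.30, SE 0.17, adjusted p = 0.562). Musk, the muscle kinase of receptor clustering, had 0.65 (SE 0.27, adjusted p = 0.332). Ric3, a chaperone of nicotinic receptors, had 0.30 in the vestibule (SE 0.21, adjusted p = 0.553). Agrn, the secreted organiser of receptor clusters, was at 192, 281 and 450 CPM in vestibular heterozygotes and 146, 202 and 276 CPM in mutants (-0.52, adjusted p = 0.497). With the block Agrn passed (adjusted p = 0.000341), 1 of 2 genes of this list then lower.

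Downstream of the receptor, 13 genes for calcium stores and calcium-gated potassium channels had cochlear tests. Of these 1 rose and 2 fell (3 with the block), with a median of -0.13. In the vestibule 1 of 12 fell and none rose, with a median of -0.28, while with the block 2 rose and 4 fell, and without both replicate 1 libraries 2 fell. Kcnn2, the gene for the potassium channel coupled to the receptor, was at 21.0, 19.0 and 16.2 CPM in cochlear heterozygotes and 18.4, 12.4 and 17.4 CPM in mutants (-0.22, SE 0.20, adjusted p = 0.807). It was named for its role, outside the rule for named genes. In the vestibule it was at 6.96, 4.91 and 6.26 CPM against 10.2, 5.82 and 8.35 CPM (0.36, SE 0.25, adjusted p = 0.559). The genotypes overlapped in both organs.

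Atp2a3, which encodes a calcium pump of the endoplasmic reticulum, fell in both organs. In the cochlea it went from 23.8, 14.6 and 22.0 CPM to 2.12, 1.29 and 3.47 CPM (-2.71, SE 0.29, adjusted p = 7.42e-05). Vestibular levels went from 486, 433 and 461 CPM to 19.0, 23.8 and 21.0 CPM (-4.38, SE 0.13, adjusted p = 5.88e-06). The falls differed by 1.67 (SE 0.32, adjusted p = 0.00854), the vestibular one being larger, in contrast to Chrna9. Cacna1d, the calcium channel of the hair cell synapse, fell in the cochlea (-0.66, SE 0.13, adjusted p = 0.00942). It went from 155, 146 and 183 CPM to 95.7, 95.9 and 114 CPM. The call was lost when a mutant library was left out, where the adjusted p reached 0.0599. In the cochlea the list of calcium stores and potassium channels had 1 gene lower without mutant replicate 1, and likewise without mutant replicate 2. Ryr3, a calcium release channel, went from 5.59, 15.1 and 12.5 CPM to 20.1, 22.7 and 29.0 CPM (1.13, SE 0.29, adjusted p = 0.0433), a call lost with edgeR (adjusted p = 0.0601), with median-of-ratios scaling, without the filter, without both replicate 3 libraries and without each of 4 single libraries.

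Muscarinic receptor genes, the G protein-coupled acetylcholine receptors, had 2 of 5 tested in each organ and no call, with medians of -0.04 in the cochlea and 0.40 in the vestibule. Chrm1 differed by -0.15 in the cochlea (adjusted p = 0.939) and by 0.60 in the vestibule (adjusted p = 0.277). Chrm3 was under 3 CPM in the cochlea, and its difference of 0.06 (adjusted p = 0.985) took either sign across alternatives. In the vestibule heterozygotes had 10.6 to 13.7 CPM and mutants 13.1 to 15.4 CPM (0.21, adjusted p = 0.648). Of the genes for acetylcholine breakdown, none of 3 cochlear and of 4 vestibular ones tested was called, with medians of 0.17 and 0.09. With the block 2 vestibular ones rose and 1 fell. Bche, butyrylcholinesterase, differed by 0.17 in the cochlea (adjusted p = 0.88) and by 0.59 in the vestibule (adjusted p = 0.125, and 0.00224 with the block). Prima1, a membrane anchor of acetylcholinesterase, differed by 0.22 in the cochlea (adjusted p = 0.894) and, in the vestibule, by 0.76 (adjusted p = 0.209, and 0.0472 with the block). Colq, its collagen tail, was at 1.38, 1.72 and 2.08 CPM in vestibular heterozygotes and 0.264, 1.15 and 0.123 CPM in mutants (-0.90, adjusted p = 0.2, and 0.0297 with the block).

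**Figure D4:**
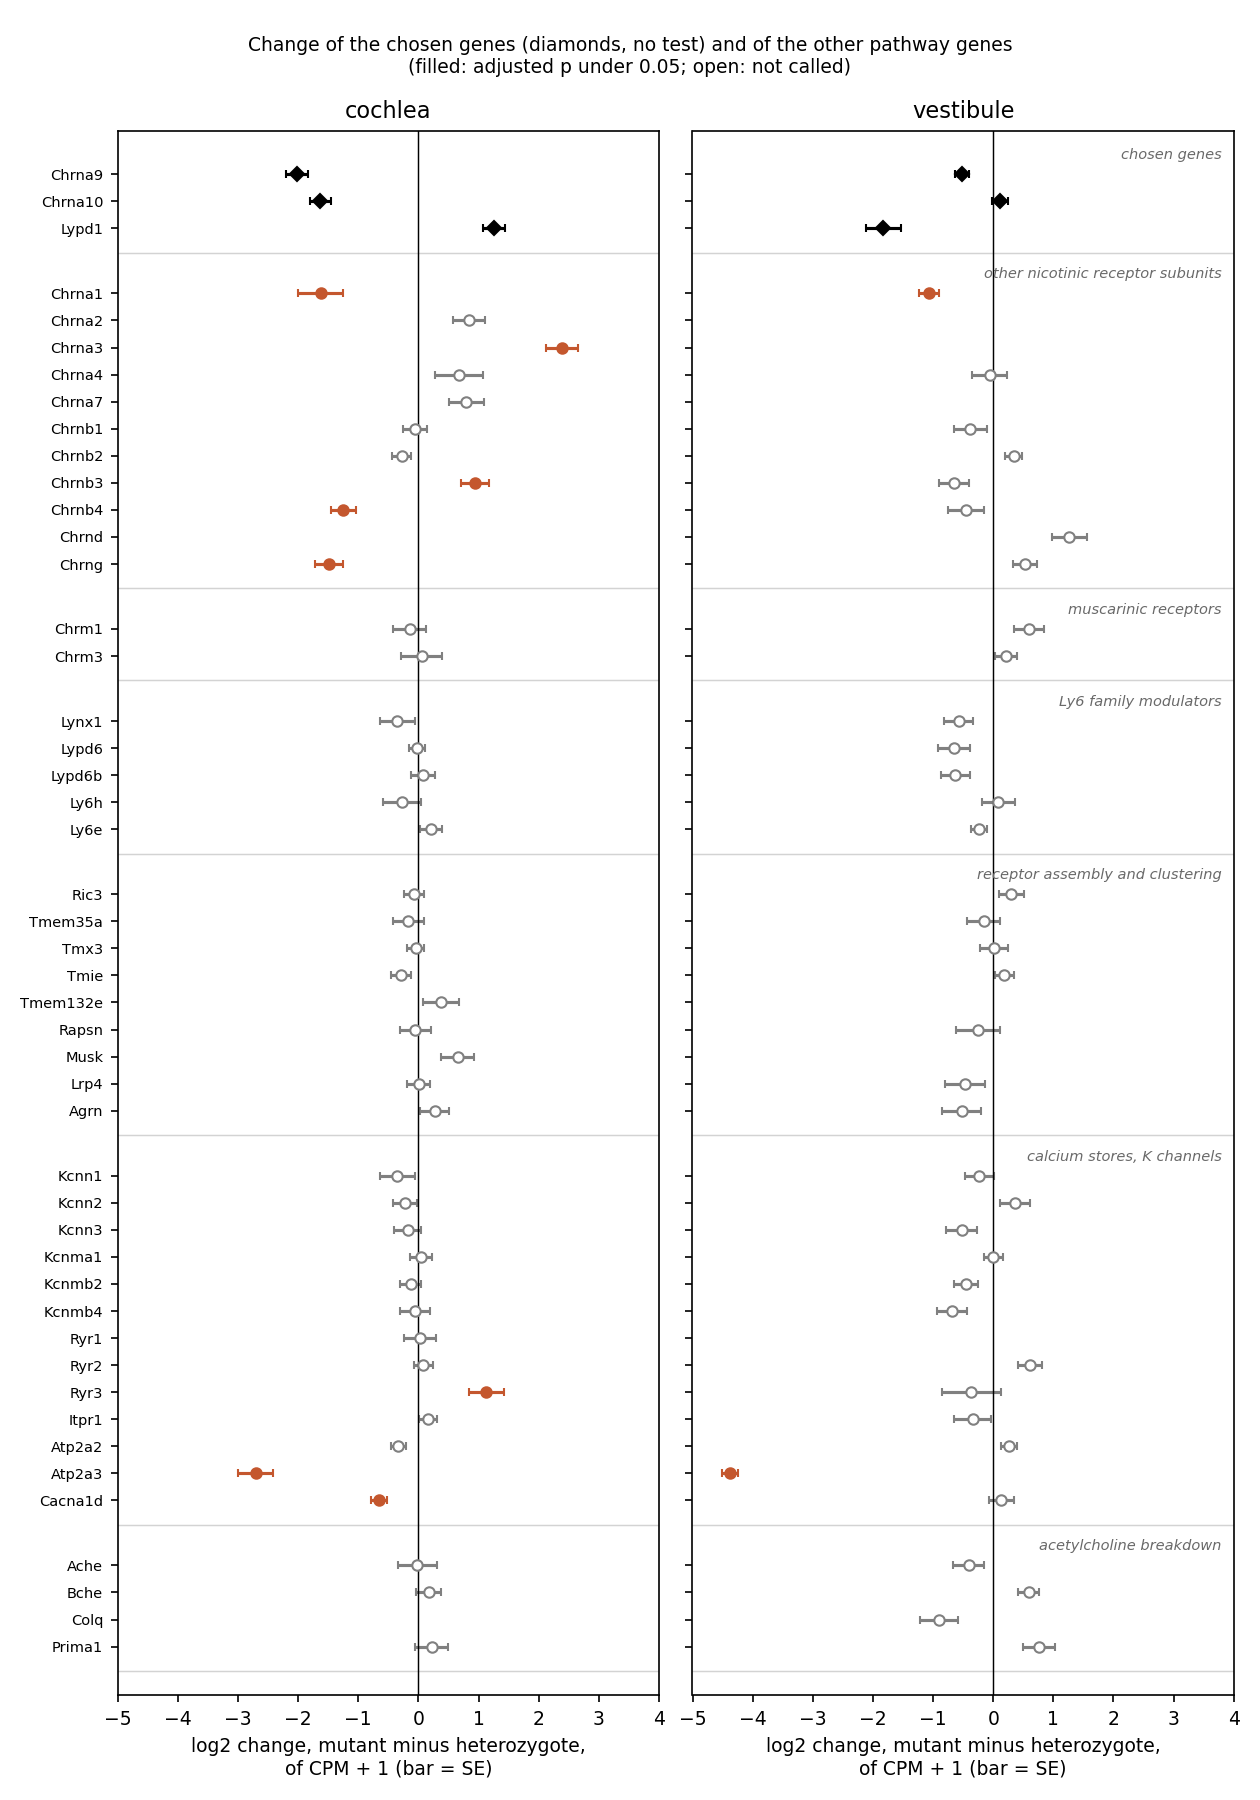
Log2 difference of CPM + 1, mutant minus heterozygote, with SE, in the cochlea (left) and the vestibule (right) for Chrna9, Chrna10 and Lypd1 (diamonds, without a test) and for the tested genes of 6 pathway lists (filled where the adjusted p was under 0.05). Most pathway genes lay near 0, and Atp2a3 lay farthest below it, at -2.71 and -4.38.

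The genes whose profiles came nearest were sought by the root mean square difference of log2(CPM + 1), centred within each organ, over the 12 libraries. Among 13425 genes those near to Chrna9 included Slc14a1 (0.184), B3galt5 (0.196), Tmprss7 (0.197) and Olfml3 (0.201), where the median gene was at 0.792. Slc14a1, a urea transporter gene, went from a mean of 76.5 to 16.9 CPM in the cochlea and from 25.3 to 22.5 CPM in the vestibule, log2 differences of -2.11 (SE 0.15) and -0.17 (SE 0.17). Olfml3, which encodes a secreted olfactomedin-like protein, had -1.53 (SE 0.14) and -0.64 (SE 0.12).

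Chrna10 was nearest to Dnajb13 (0.108), Mycbpap (0.161), Ankrd22 (0.168), Ccdc65 (0.172) and Rnf224 (0.177), with the median gene at 0.677. Dnajb13 and Ccdc65 encode proteins of motile cilia and sperm tails. Dnajb13 went from 10.7 to 3.36 CPM in the cochlea and from 84.7 to 92.9 CPM in the vestibule, log2 differences of -1.40 (SE 0.25) and 0.13 (SE 0.16). Ccdc65 had -1.52 (SE 0.17) and 0.08 (SE 0.11).

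The profile of Lypd1 had no gene as near. Its nearest were Maob (0.354), Hapln1 (0.366), Thsd7a (0.406), Sema3c (0.417) and Prkcq (0.456), with the median gene at 0.823. Maob, a monoamine oxidase gene, went from 7.09 to 11.3 CPM in the cochlea and from 16.8 to 3.71 CPM in the vestibule, log2 differences of 0.57 (SE 0.27) and -1.91 (SE 0.22). Sema3c, a secreted guidance cue, had 0.84 (SE 0.14) and -0.99 (SE 0.26). These nearest genes were picked on the contrasts themselves, and their likeness is a description.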

How the data were processed

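RNA bound to HA-tagged ribosomes was measured in 12 libraries. The deposited values were CPM, per the file headers and the values, with 1 table per library. TopHat and GRCm38 are named in the submitters' processing notes; the counting tool, annotation and strand setting are not given in the sources used here. All values (100%) were whole multiples of 1 read to within 0.001 reads, so reads were recovered for the edgeR alternative.

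Within each organ, genes that reached 1 CPM in 3 or more of its 6 libraries were compared by limma 3.58.1 (trend, R 4.3.3) on log2(CPM + 1), with Benjamini-Hochberg adjustment over all tested genes. Called genes numbered 794 in the cochlea and 546 in the vestibule, and 813 and 524 with edgeR 4.0.16 (quasi-likelihood). An interaction term over 12 libraries tested the difference between organs. On simulated data of these depths, 64 of 100 genes changed 2-fold and 88 of 100 changed 4-fold were recovered in the cochlea (17659 genes). In the vestibule 59 and 83 were recovered (15402 genes). False calls numbered 6 in the cochlea and 2 in the vestibule. Simulated libraries were drawn independently, without the joint deviation of same-numbered libraries, so these shares need not hold for the real data.

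Replicate numbers come from the sample titles. Same-numbered heterozygote and mutant libraries deviated together, with correlations of 0.23, 0.23 and 0.42 in the cochlea and 0.77, 0.51 and 0.60 in the vestibule. In an alternative fit the numbers were therefore taken to pair them, as a block. The main fit left the number out, so calls and p-values given without mention of the block do not use this pairing. The fit with the block is given where it changed the call of a named gene or the count of a list.

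The 3 genes, the 6 pathway lists, the 10 marker lists and the tests were chosen with earlier results of these data known. From a pathway list, each called gene of an organ (up to 6) or otherwise the 2 with the smallest p were named; from a marker list the sum, the calls and up to 3 genes; and for each chosen gene the 5 with the nearest profile, leaving out predicted genes and genes sharing its exons; 1 gene that the rule takes is not reported here. Kcnn2, Slc5a7 and the other subunit genes placed by level fall outside this rule. Alternatives were pseudocounts of 0.25 and 4, no filter and a filter of 5 CPM, median-of-ratios scaling, quantile normalization, edgeR, the block, and leaving out libraries. Annotation was GENCODE M21, promoter sequences were from RefSeq, and figures were drawn with matplotlib 3.10.9.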

Additional observations from a re-analysis of the deposited data

Results flagged for a closer look

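A difference between the organs in the effect of genotype, tested by the interaction term (cochlear minus vestibular log2 difference, limma, adjusted over 14674 genes), drew attention to 7 of the named genes. For nicotinic subunit genes it was -2.02 for Chrng (SE 0.32, adjusted p = 0.00191) and 1.59 for Chrnb3 (SE 0.34, adjusted p = 0.0163), where vestibular Chrnb3 was at 1.70 CPM or less. In the vestibule Chrnb3 passed the filter through the heterozygotes alone, so the groups had to differ there, and that difference enters its interaction term. For the calcium pump gene Atp2a3 the difference between organs was 1.67 (SE 0.32, adjusted p = 0.00854). Hair cell markers gave -1.99 for Cdh23 (SE 0.27, adjusted p = 0.000627), -1.58 for Pcdh15 (SE 0.27, adjusted p = 0.00326) and -0.81 for Myo7a (SE 0.20, adjusted p = 0.0384). The granulocyte marker Ltf gave 1.86 (SE 0.40, adjusted p = 0.0175). Ltf passed the filter through the heterozygotes alone in both organs, so it had to be lower in mutants of each, and both falls enter this value. An effect of the library kit on the size of a difference cannot be told apart from the organ.

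Lypd1 moved in opposite directions: each cochlear mutant lay above, and each vestibular mutant below, every heterozygote of its organ. In the vestibule it passed the filter through the heterozygotes alone, so the groups had to differ there. Groups did not overlap for 9.74% of cochlear genes with mutants higher and for 11.6% of vestibular genes with mutants lower. The cochlear minus vestibular log2 difference was 3.08 (SE 0.34), which was not tested because the gene was chosen on these values.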

How the results depend on the processing

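With the replicate block the genes called numbered 1532 in the cochlea, against 794 without it, and 3634 in the vestibule, against 546. Among the genes given with a p above, the block changed the calls of Chrng, Lypd6, Agrn, Bche, Prima1 and Colq in the vestibule; the list counts it changed stand beside each list, and it changed no other call given. Leaving out 1 library at a time gave 216 to 510 calls in the vestibule and 300 to 449 for the difference between organs, against 461. The vestibular count was 216 without heterozygote replicate 2, 286 without heterozygote replicate 3, and 333, 225 and 222 without mutant replicates 1, 2 and 3, and the organ difference was lowest without vestibular heterozygote replicate 2. Without a filter on low values 358 vestibular genes were called; the cause was not tested. Cochlear Chrm3, at 0.06, was -0.10 with edgeR, -0.074 without both replicate 3 libraries and -0.17 to 0.46 when single libraries were left out; Bche there, at 0.17, was -0.063 to 0.37. The sign of the other genes named by the rule was kept under every alternative that gave a value. Of the alternatives for the named genes, 671 left direction and call as they were, 79 lost the call, 4 gained it and 6 turned the sign. For the chosen genes 80 values moved by less than 1 SD. The exceptions were cochlear Chrna9 (-1.70 with pseudocount 4, -2.23 with edgeR) and vestibular Lypd1 (-2.98 and -0.80 with pseudocounts 0.25 and 4, -3.93 with edgeR). Vestibular Lypd1 had no value with the filter of 5 CPM, without any 1 heterozygote library, or without both replicate 1 libraries, since it was then not tested. At 14 reads over 3 mutants, depth limits what can be said of its level there.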
